A study of Mus musculus with 73 samples.

Results

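DNA methylation was compared between adult mouse livers that had lost all 3 FoxA genes and livers that lacked FoxA3 alone, 13 days after the loss was induced. The comparison used reduced representation bisulfite sequencing (RRBS), which reads methylation in the CpG-rich share of the genome, and rested on 2 libraries of each group. Its members were the 100 bp tiles that carried a methylation level in all 4 libraries, which were 442000 of the 817277 tiles in the deposited RRBS table. The nulls were labelled FoxA triple null, 13 days after induction of Cre, the recombinase that removes the floxed FoxA1 and FoxA2 alleles. The controls were labelled FoxA1L/L;FoxA2L;L;FoxA3-/- and had received GFP in place of Cre for the same 13 days. Both groups therefore lacked FoxA3, both were 12 weeks old, and both were labelled liver, with DNA taken from hepatocytes according to the protocol. The RRBS labels did not name the vehicle or the promoter of the Cre. They did not say how many animals made up a library either, so p-values measure the spread between libraries. A second set of 3 triple nulls and 3 controls of the same genotypes, 7 days after induction and 9 weeks old, was used to ask whether a difference was also seen in other libraries. In the main limma fits, variances came from all 27 RRBS libraries in 10 groups. These included developmental FoxA double nulls and controls of several ages, and livers depleted in development of only some floxed FoxA alleles. The groups of several ages had no replicate at any age, so their spread mixes age with replicate differences. Exact permutation p-values used only the libraries compared. Also included were 3 FoxA double nulls made in adulthood, with 2 controls given GFP by adeno-associated virus. All were 12 weeks old and after partial hepatectomy, and their levels at the same tiles were used as well. Methylation levels do not themselves check that the FoxA genes were deleted, and a level in bulk DNA averages over all cells of the sample.

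FoxA1, FoxA2 and FoxA3 are forkhead transcription factors that bind DNA in closed chromatin and make it accessible to other factors, and in the liver they act at enhancers of hepatocyte genes together with partners such as HNF6 and HNF4A. Enhancers in use generally carry little CpG methylation, while most CpGs outside CpG islands and regulatory elements are highly methylated. A methylation mark can be lost through dilution at cell division or through enzymatic oxidation and repair, and hepatocytes of an adult liver seldom divide unless the liver is injured. Positions are given on the mm9 build used in the deposited tables. No gene is named, because no annotation of that build was used here.

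The tiles covered the 19 autosomes. Triple nulls had a level at 533421 and 512397 tiles, and their controls at 549803 and 590408. The coverage behind each level is unknown, so no interval of a single level could be given. Over all members the mean level was 58.3% and 57.9% in the nulls, against 57.8% and 58.8% in the controls, and the groups overlapped. Levels at 0% made up 12.1% and 13.3% of tiles in the nulls, against 10.8% and 10.4% in the controls. Levels at 100% made up 12.3% and 11.3% of tiles in the nulls, against 10.6% and 10.9% in the controls. Both extremes were thus more frequent in the nulls, which also had fewer tiles with a level. The part of this in the results below was not tested. The correlation across tiles between any pair of the 4 libraries was 0.976 to 0.980. The median absolute difference was 3.08 points between the nulls and 2.96 points between the controls, and the median absolute difference between the group means was 2.25 points.

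Classes of tile were compared first, beginning with FoxA sites, the 33307 regions of 400 bp at which the study reported whole-genome bisulfite sequencing (WGBS). Some of these are on the study's list of hyper-methylated sites, called listed sites here, and 133 of the listed sites held a tile. Tiles at FoxA sites off the list had a low level that was lower still in the nulls. The mean over these 6971 tiles was 7.66% and 7.22% in the nulls, against 8.69% and 8.23% in the controls. The means were 7.44% ± 0.309 in nulls and 8.46% ± 0.326 in controls (SD, n = 2 each), a difference of -1.02 points. The groups did not overlap, and with 2 libraries a group the two-sided exact permutation p was 0.333, the smallest this design can give. Both nulls were below both controls at 1132 of the 6971 tiles and above both at 485, from 3050 places more than 1000 bp apart. Over all tiles, which are far more methylated on average, the shares were 15.6% below and 12.9% above. The count below was thus near its share over all tiles, and the count above was under it. At FoxA sites off the list the difference was -0.574 points by the median of tiles. It was -2.51 points at tiles with a mean level of 5 to 95% in the same 4 libraries. Because that range was set in the libraries compared, a tile can enter it through 1 group alone.

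The day 7 libraries showed the same order. Over the 6148 of these tiles that had a level in all 10 libraries, day 7 nulls stood at 7.71%, 7.13% and 7.71%, against 8.80%, 8.70% and 8.76% in day 7 controls. Day 13 nulls stood at 8.09% and 7.65% over the same tiles, against 9.01% and 8.62% in day 13 controls. Every null library was below every control library of its own day. The difference was -0.946 points at day 13 and -1.23 points at day 7, and the mean over days of -1.09 points had a two-sided exact permutation p of 0.0167 when labels were exchanged within each day. That is the smallest p among the 120 relabellings, and adjusted over the 6 classes of tile compared it was 0.05, which is not under the threshold. By the median of tiles the mean over days was -0.411 points, and at levels of 5 to 95% it was -2.62 points (exact permutation p = 0.0167 each). That range was again set in the libraries compared, so the larger value is not separate support. The mean level at tiles more than 2000 bp from any FoxA site had no such order: 61.7% and 61.3% in day 13 nulls, against 61.1% and 62.1% in day 13 controls. Over both days these distant tiles differed by 0.0518 points (exact permutation p = 0.883). In the hepatectomy libraries, tiles at FoxA sites off the list averaged 8.90% ± 0.201 in nulls (SD, n = 3) and 8.84% ± 0.658 in controls (SD, n = 2).

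**Figure D1:**
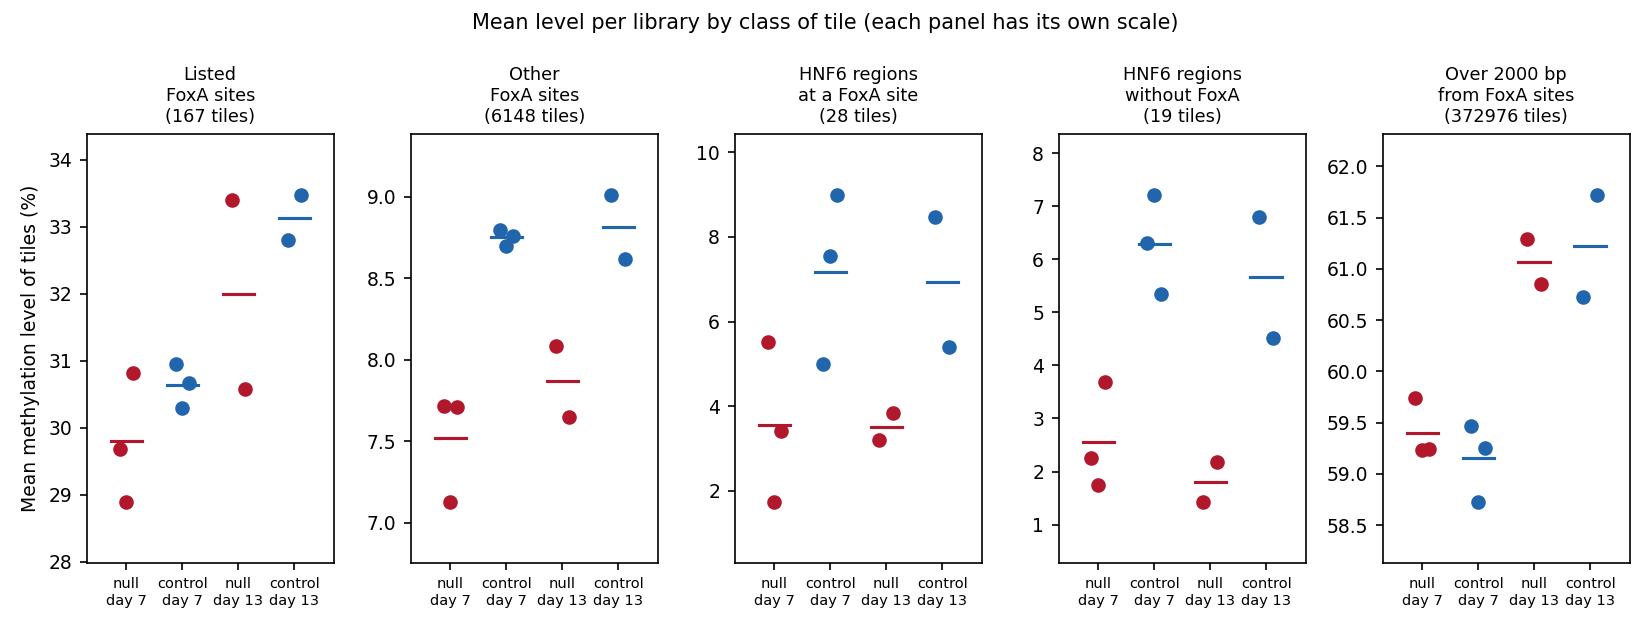
Mean methylation level in percent (y axis, its own range in each panel) for each library of the triple null and control groups at day 7 and day 13 (x axis), over tiles with a level in all 10 libraries. Points are libraries and bars are group means. At FoxA sites off the list and at HNF6 regions without a FoxA site every null lies below every control of its day. At HNF6 regions at a FoxA site 1 day 7 null lies above 1 day 7 control, and the nulls of each day have the lower mean. At listed sites the nulls of each day also have the lower mean but the groups overlap, and at distant tiles the groups overlap too.

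The lower level was found mainly at tiles of low to intermediate methylation. Tiles were divided by their mean level in the day 7 controls, which are not the libraries compared here. At FoxA sites off the list with a level of 5 to 20%, 1389 tiles averaged 6.67% and 5.69% in day 13 nulls, against 9.81% and 7.51% in day 13 controls, a difference of -2.48 points. Distant tiles of the same level averaged 10.7% and 10.5% in nulls, against 11.3% and 11.7% in controls, a difference of -0.908 points, so tiles of this level were lower in nulls away from FoxA sites as well. At 40 to 60% the 136 tiles at FoxA sites off the list stood at 49.3% and 49.2% in nulls, against 51.3% and 54.5% in controls. Distant tiles of 40 to 60% stood at 54.8% and 54.5% in nulls, against 53.7% and 56.5% in controls, and overlapped. Above 60% the groups overlapped at FoxA sites too: the 130 tiles of 80 to 95% stood at 89.6% and 89.0% in nulls, against 87.4% and 90.3% in controls.

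The difference was then followed by distance from a FoxA site. For this the level of 5 to 20% was set in the hepatectomy controls, and both days were used. This division was chosen after its values were seen. Tiles overlapping a FoxA site differed by -2.90 points on average over both days, and tiles 1 to 500 bp away by -2.06 points. Tiles 501 to 2000 bp away differed by -2.02 points and those 2001 to 10000 bp away by -1.44 points. The exact permutation p was 0.0167 for each of these 4 bins, the smallest possible. Tiles over 10000 bp away differed by -0.658 points with an exact permutation p of 0.0333. The level of each of the first 3 bins was then taken relative to all tiles of 5 to 20% more than 2000 bp away in the same library. The difference that remained was -2.09 points at overlapping tiles (exact permutation p = 0.0333), -1.25 points at 1 to 500 bp and -1.21 points at 501 to 2000 bp (exact permutation p = 0.0167 each). At day 13 alone the 5 bins differed by -2.38, -1.82, -2.0, -1.49 and -0.757 points in order of distance, so the size did not fall steadily from bin to bin. Neighbouring bins were not tested against each other.

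**Figure D2:**
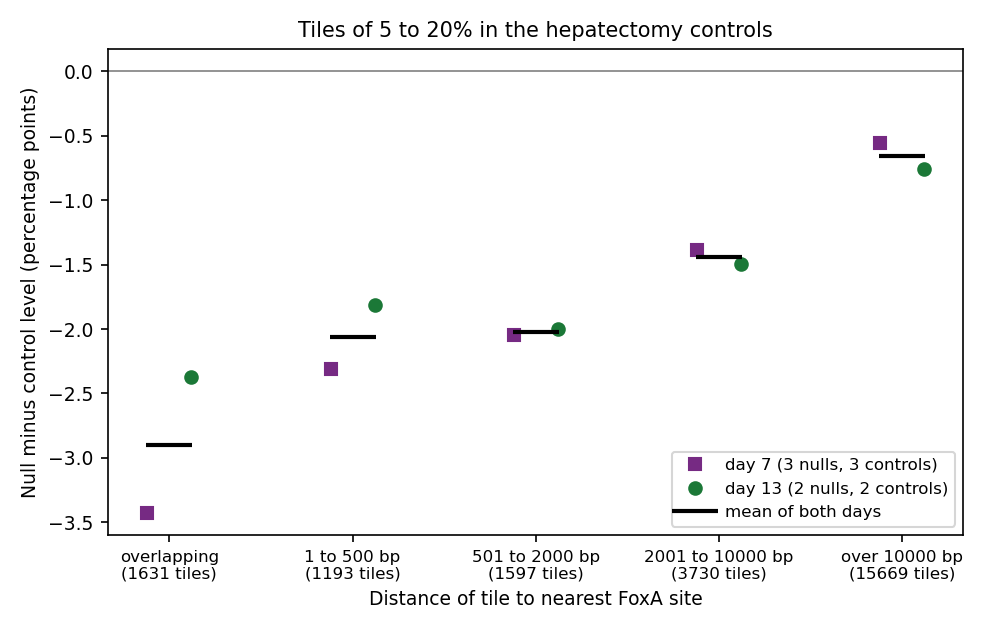
Difference in mean level, null minus control, in percentage points (y axis) for tiles of 5 to 20% in the hepatectomy controls, by distance to the nearest FoxA site (x axis, number of tiles in parentheses). Squares are day 7, circles day 13 and black bars the mean of both; the mean runs from -2.90 points at overlapping tiles to -0.658 points beyond 10000 bp.

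Site by site, few differences stood out of the spread within groups. Of the 3933 FoxA sites with at least 1 tile, limma called 0 higher and 1 lower in nulls (0.0254% of sites) at an adjusted p under 0.05. Limma's unadjusted p was under 0.05 at 115 of the 3933 sites, a smaller share than the 0.05 expected with no difference. Both nulls were below both controls at 22.9% of sites and above both at 7.81%, against 15.6% and 12.9% of all tiles. All tiles are on average far more methylated than FoxA sites, so tiles of 5 to 20% in the hepatectomy controls were also counted. At this level, the 1631 tiles overlapping a FoxA site were below at 25.7% and above at 6.62% at day 13, and the 19399 tiles more than 2000 bp away were below at 20.2% and above at 12.7%. On both days, 108 of these tiles at FoxA sites were below and 1 above, and 417 of the distant tiles were below and 110 above, so the direction was uneven away from FoxA sites as well. In the 3595 sites with a level in all 10 libraries, nulls were below controls on both days at 168 sites (4.67%) and above on both at 5 (0.139%). Of the 411725 tiles with a level in all 10, 3574 (0.868%) were below on both days and 3101 (0.753%) above on both, and for tiles more than 2000 bp from a FoxA site the shares were 0.815% and 0.784%. At day 7 alone nulls were below controls at 14.4% of the sites and 4.63% of all tiles, and above at 2.06% of the sites and 5.09% of all tiles. The 168 sites formed 136 separate regions, since many sites overlap and share tiles. Across the 3595 sites the day 13 and day 7 differences correlated weakly (Pearson's r 0.111, Spearman's rho 0.183, a description across sites that share libraries and tiles).

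**Figure D3:**
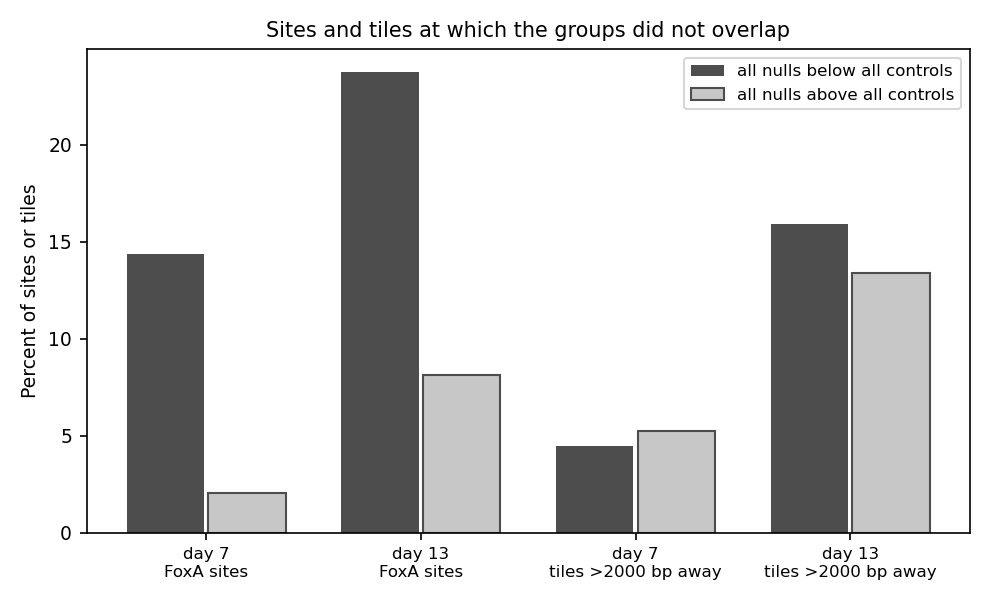
Percent of FoxA sites, and of tiles more than 2000 bp from any, (y axis) at which every null library lay below (dark bars) or above (light bars) every control library, at day 7 and day 13 (x axis). At FoxA sites 14.4% were below and 2.06% above at day 7, and 23.7% were below and 8.15% above at day 13; among distant tiles 4.48% were below and 5.27% above at day 7, and 15.9% below and 13.4% above at day 13.

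The called site was chr13:40955058-40955457, which is off the list and held 1 tile. Its level was 0% in both nulls, against 10.0% and 14.3% in the controls. It fell by 12.1 points (SE 1.94, limma adjusted p = 0.0366), and the adjusted p was 0.315 without null 1, 0.166 without null 2 and 0.0941 without control 2. At day 7 the 5 libraries with a level were all at 0%, nulls and controls alike. The call therefore had no counterpart at day 7.

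The 6 separate sites with the largest mean fall over both days among the 168 were chosen after their values were seen and are given as levels, without a test. At chr9:21635324-21635723 the tile was at 0% in both day 13 nulls, against 22.2% and 11.1% in day 13 controls. At day 7 it was at 3.57%, 0% and 8.33% in nulls, against 10.0%, 13.3% and 10.0% in controls. WGBS, a separate assay on mice whose genotype names only FoxA1 and FoxA2, gave this site 5.92% and 10.4% a month after Cre was delivered to adults by virus, against 13.4% and 14.6% in controls. The WGBS levels of control 2 come from another deposited table than those of the adult nulls, so this and the following WGBS comparisons set levels across tables. At chr14:60166412-60166811 the level was 5.00% and 2.50% in day 13 nulls, against 11.1% and 16.2% in day 13 controls. At day 7 it was 3.12%, 6.20% and 0% in nulls, against 20.0%, 19% and 10.9% in controls. WGBS gave 2.14% and 9.31% at this site in adult nulls, against 8.57% and 6.02% in controls, which overlap. The site chr1:20460850-20461249 stood at 15.0% and 14.3% in day 13 nulls, against 20.2% and 27.4% in day 13 controls, and at 6.67% to 10.4% in day 7 nulls, against 18.8% to 41.7% in day 7 controls. In the hepatectomy libraries it ran the other way, with 25.8% to 39.0% in 3 nulls and 9.09% in the 1 control that had a level. The other 3 were chr6:51607727-51608126, chr15:96572967-96573366 and chr15:101752165-101752564, with day 13 null means of 15.0%, 0% and 13.5%, against control means of 29.2%, 6.78% and 19.5%. The last of these is on the list. None of the 6 had a limma adjusted p under 0.05 at day 13.

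WGBS was not used to find the 168 sites, and 142 of them have adult WGBS levels. Their mean WGBS level was 7.40% and 7.81% in adult nulls, against 8.79% and 10.1% in controls, a difference of -1.86 points. At the 3001 other sites it was 9.87% and 10.3% in adult nulls, against 10.5% and 11.5% in controls, a difference of -0.916 points. WGBS groups did not overlap in either set, and 2 libraries a group cannot give an exact p below 0.333. In the hepatectomy libraries, 166 of the 168 sites averaged 11.4%, 11.7% and 11.6% in nulls, against 13.9% and 9.64% in controls, and overlapped.

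Listed FoxA sites showed no gain of methylation in the mean. The 184 tiles at listed sites averaged 31.7% and 28.7% in nulls, against 31.7% and 31.4% in controls, a difference of -1.33 points with an exact permutation p of 1. Without null 2 the difference was 0.172 points, so its sign rested on that library. Over both days the 167 tiles with all libraries differed by -0.989 points (exact permutation p = 0.2). The median of tiles in place of the mean gave -2.88 points (exact permutation p = 0.0167). The hepatectomy nulls stood at 29.1% ± 1.23 at these tiles (SD, n = 3), against 25.9% ± 0.965 in hepatectomy controls (SD, n = 2), which is the opposite order.

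Single listed sites spread widely in both directions, and the 1 called site was not among the 133 listed sites with a tile, out of 3933 sites in all. The 4 largest falls and 4 largest rises each rested on 1 tile. The site chr6:97801936-97802335 was at 11.1% and 9.09% in nulls, against 40% and 53.3% in controls (adjusted p = 1), while day 7 nulls at 12.1% to 15.2% overlapped day 7 controls at 3.70% to 36.4%. The site chr2:30958736-30959135 was at 0% and 5.56% in nulls, against 32.1% and 41.7% in controls, while at day 7 nulls stood at 27.8% to 50.0%, overlapping 22.7% to 31.2% in controls but with the higher mean. The sites chr10:98499712-98500111 and chr10:94255199-94255598 differed by -19.7 and -15.0 points, the first with overlapping groups. Without control 1 the first of these differed by 3.90 points, the opposite direction. The largest rise was at chr1:129252284-129252683, with 62.5% and 50.0% in nulls, against 44.4% and 0% in controls. The sites chr11:115105128-115105527 and chr11:115105185-115105584 overlap and share 1 tile, at 94.4% and 96.2% in nulls, against 50.8% and 85.4% in controls. The site chr11:77644081-77644480 was at 50.0% and 55.6% in nulls, against 18.8% and 35.2% in controls. None of these rises was seen at day 7, where each site's groups overlapped.

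HNF6 is a homeodomain factor that binds many liver enhancers beside FoxA. Reproducible HNF6 regions, those with a peak in all 3 control ChIP libraries of the study, numbered 1078, of which 398 overlapped a FoxA site. Few were covered by RRBS. The 40 tiles in HNF6 regions at a FoxA site, from 27 separate places, averaged 3.57% and 4.41% in nulls, against 8.77% and 5.70% in controls, a difference of -3.24 points, which was -1.71 points without control 1 and -4.78 points without control 2. The 21 tiles in HNF6 regions without a FoxA site, from 14 places, averaged 1.30% and 1.97% in nulls, against 6.16% and 4.08% in controls, a difference of -3.49 points. By the median of tiles the second difference was -1.61 points. It was -9.46 points at those of the 21 tiles with a mean level of 5 to 95% in the same 4 libraries, so this value rests on fewer tiles. Because that range was set in the libraries compared, a tile can enter it through the higher controls alone, so the larger value is not separate support. Neither pair of groups overlapped, and the exact permutation p was 0.333 for each, the smallest possible. Both nulls were below both controls at 14 of the 40 tiles and at 10 of the 21, and above both at 2 of the 40 and 1 of the 21, where the shares over all tiles were 15.6% and 12.9%. All tiles are far more methylated than these. Tiles of 5 to 20% in the hepatectomy controls, more than 2000 bp from a FoxA site, were below at 20.2% and above at 12.7%.

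Over both days the HNF6 regions without a FoxA site differed by -3.79 points over 19 tiles (exact permutation p = 0.0167, adjusted over the 6 classes 0.05). The difference was -7.33 points at those of the 19 tiles with a mean level of 5 to 95% in the same 10 libraries. This range too was set in the libraries compared and can be entered through the higher controls alone, so the larger value is not separate support. HNF6 regions at a FoxA site differed by -3.52 points over 28 tiles (exact permutation p = 0.0333, adjusted 0.0667). At day 7 the HNF6 tiles without a FoxA site stood at 2.26%, 1.74% and 3.68% in nulls, against 6.31%, 7.21% and 5.36% in controls, with no overlap. The HNF6 tiles at a FoxA site stood at 5.51%, 1.75% and 3.41% in day 7 nulls, against 5.00%, 7.55% and 8.98% in day 7 controls, where 1 null lay above 1 control. The hepatectomy libraries averaged 10.9% in nulls and 12.4% in controls at HNF6 tiles with a FoxA site, and 7.24% in nulls and 7.94% in controls at those without, with overlapping groups at the second.

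Across all tiles, limma called 12 higher (0.00271% of tiles) and 21 lower (0.00475%) in nulls at an adjusted p under 0.05, 33 in all (0.00747%) on 16 chromosomes. Limma's unadjusted p was under 0.05 at 20675 of the 442000 tiles, a smaller share than the 0.05 expected with no difference. No called tile was at a listed site, 3 overlapped a FoxA site off the list, and 26 lay more than 2000 bp from any. Among all 442000 tiles, 184 were at listed sites, 6971 at FoxA sites off the list and 399989 more than 2000 bp from any. Most tiles of either kind were thus distant, and the calls are too few to compare these shares. In 15 of them 1 group was at 0% in both libraries and in 7 of them 1 group was at 100% in both. Of the 33 calls, 27 remained without null 1, 21 without null 2, 17 without control 1 and 26 without control 2. Falls did not outnumber rises under each alternative: without control 2 limma called 446 tiles higher and 172 lower in nulls, and on the logit scale 23 higher and 19 lower. A fit that took its spread from the 4 day 13 libraries alone called 0 tiles, and one that took it from the 10 libraries of both days kept 10 of the 33.

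The falls of at least 10 points were 15 tiles, of which 11 were highly methylated in the controls. The largest was at chr1:163069101-163069200, with 59.1% and 50.0% in nulls, against 100% in both controls (-45.5 points, SE 6.41, limma adjusted p = 0.0409). Next were chr1:186313701-186313800, with 37.0% and 58.5% in nulls, against 90.2% and 90.0% in controls, and chr3:34597801-34597900, with 54.2% and 36.4% in nulls, against 81.2% and 93.7% in controls. All 3 were between 63.6% and 85.0% in the day 7 libraries, with the day 7 groups overlapping at each. The tile chr18:82864901-82865000 was at 75.0% and 74.3% in nulls, against 100% in both controls (-25.4 points, SE 3.26, adjusted p = 0.0168), and the 1 tile beside it within 500 bp differed by -18.9 points. The tile chr6:87566701-87566800 was at 70.5% and 66.7% in nulls, against 89.7% and 92.9% in controls, with its neighbour at -11.5 points. At day 7 that tile ran the other way, at 90.3% to 91.7% in nulls and 83.2% to 85.3% in controls.

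Of the other falls from a high level, chr17:22977801-22977900 fell by 24.2 points, chr11:54779601-54779700 by 24.0 points and chr7:65930901-65931000 by 21.5 points. Falls of 14.4 to 17.1 points were called at chr17:46651501-46651600, chr1:193759801-193759900 and chr2:60133001-60133100. The tile chr17:46651501-46651600 lay 414 bp from a FoxA site, and stood at 80% and 85.7% in nulls, against 100% in both controls. The remaining 4 falls were at sparsely methylated tiles. The tile chr15:5193001-5193100 was at 1.98% and 5.08% in nulls, against 13.8% and 19.2% in controls, and 2 of its 6 neighbours within 500 bp differed by 5 points or more in the same direction. At chr13:40955101-40955200, the tile of the called FoxA site, at chr12:109511701-109511800, also at a FoxA site, and at chr7:109398201-109398300 both nulls were at 0%, against 8.33% to 14.3% in controls.

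The rises of at least 10 points were 6 tiles. The tile chr12:110832801-110832900 was at 94.4% and 87.5% in nulls, against 50.0% in both controls (41.0 points, SE 4.97, limma adjusted p = 0.0161). The tile chr4:135051401-135051500, 1512 bp from a FoxA site, was at 50.0% and 40% in nulls, against 2.86% and 8.00% in controls, and at day 7 it was at 10.0%, 13.3% and 14.3% in nulls, against 0% in the 1 control with a level. The tile chr17:27270801-27270900 was at 39.5% and 38.7% in nulls, against 0% in both controls, although day 7 nulls at 21.4% to 28.3% overlapped day 7 controls at 2.78% to 33.7%. At chr10:99404301-99404400, chr1:89712301-89712400 and chr19:28750201-28750300 both nulls were at 100%, against 64.6% to 84.6% in controls.

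The 12 calls under 10 points were 6 rises and 6 falls at tiles with 1 group at or near 0%. The 3 with the smallest adjusted p were chr5:20560701-20560800 and chr10:119664201-119664300, at 0% in both nulls against 7.14% and 7.69%, and against 5.00% and 4.17%, in controls, and chr1:89224201-89224300, at 4.76% and 6.25% in nulls against 0% in both controls (limma adjusted p = 0.00289, 0.00289 and 0.00371). The third called tile at a FoxA site, chr8:108130201-108130300, was among them, at 7.14% and 6.67% in nulls against 0% in both controls. The number of reads behind levels this low is unknown.

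The called differences were not seen at day 7 at a like size. All 18 tiles of at least 10 points that had a level in all 6 day 7 libraries differed by less than 10 points between day 7 nulls and controls. Of the 24 called tiles with all 6 libraries, 5 were at 0% throughout at day 7, 9 differed in the same direction as at day 13 and 10 did not. Of the 29 called tiles with a neighbouring member within 500 bp, 5 had a neighbour that differed by 5 points or more in the same direction. The share of all tiles with such a neighbour was not counted, so the 5 cannot be read as many or few.

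**Figure D4:**
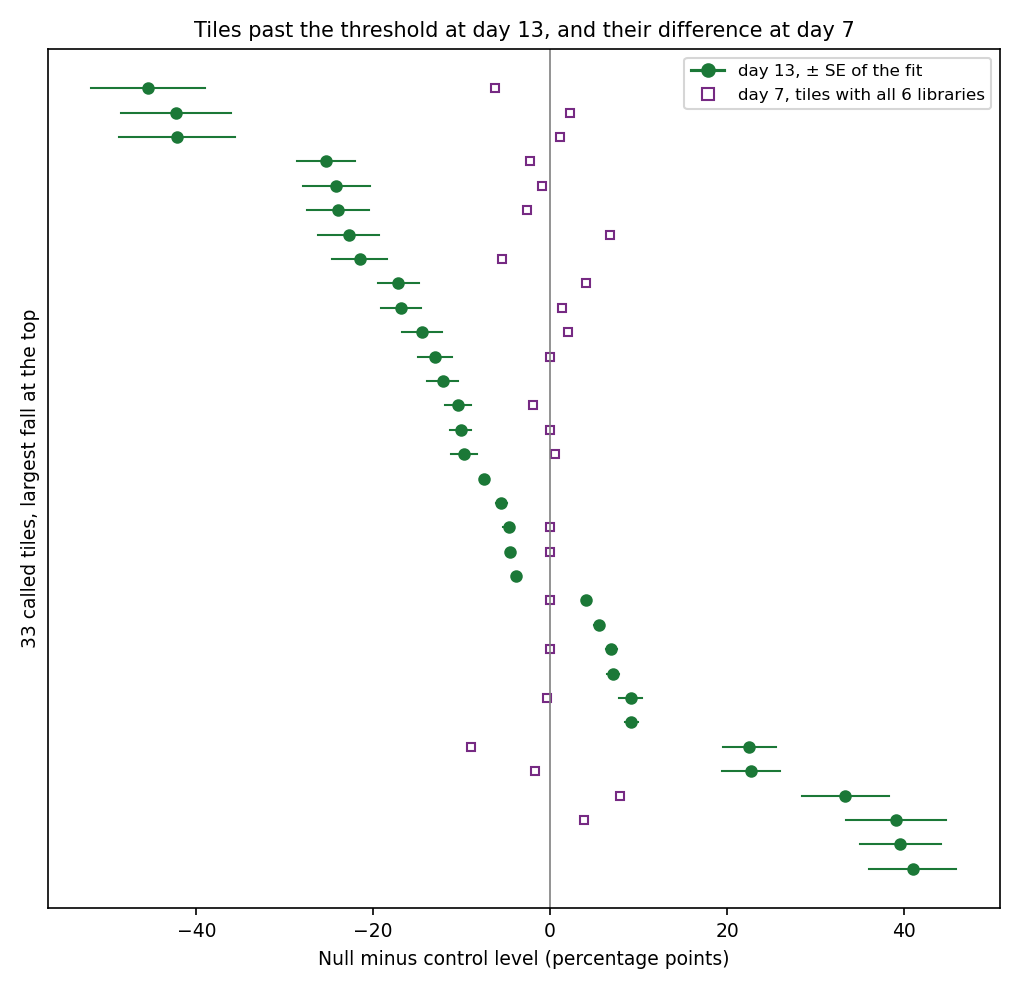
Difference in level, null minus control, in percentage points (x axis) for the 33 called tiles, 1 row each, with the largest fall at the top. Circles are day 13 with the standard error of the limma fit, and open squares are the day 7 difference where all 6 libraries had a level; the squares lie within 10 points of 0.

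Neighbouring tiles were also averaged into 52241 runs of 3 or more tiles whose starts lay at most 500 bp apart. Limma called 0 runs higher and 0 lower (0% of runs) at an adjusted p under 0.05, with a smallest adjusted p of 0.528. Its unadjusted p was under 0.05 at 2192 of the 52241 runs, a smaller share than the 0.05 expected with no difference. It was under 0.01 at 486 runs (0.93%), of which 196 were higher and 290 lower in nulls. Both nulls were below both controls at 19.9% of runs and above both at 14%, and at 12 runs (0.023%) the groups were at least 20 points apart, 8 of them lower in nulls. The 5 largest rises and 5 largest falls among those 486 are therefore a description, and 6 of these 10 runs were on chromosome 9. The largest fall was at chr9:40849601-40850000, with 25.3% and 23.9% in nulls, against 94.9% and 97.1% in controls (-71.4 points, SE 16.3, adjusted p = 0.694). All 6 day 7 libraries were between 77.9% and 93.5% at this run, and the RRBS libraries outside day 13 as a whole spanned 37.3% to 97.8%. The run chr9:39693701-39694000 was at 42.7% and 40.5% in nulls, against 92.2% and 93.5% in controls. With the spread taken from the 10 libraries of both days, both of these chromosome 9 runs passed the threshold (adjusted p = 0.00264 each).

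The largest rise was at chr9:21049201-21049700, over 5 tiles, with 73.1% and 72.7% in nulls, against 7.27% and 20.8% in controls (58.9 points, SE 16.6, adjusted p = 0.854). Its day 7 levels were 20.8%, 39.6% and 75.9% in nulls, against 41.5%, 49.7% and 24.4% in controls, so this run varied as widely within a group as between them. The other falls were chr7:146554701-146555000, chr9:40854501-40854800 and chr9:77188201-77188500, with differences of -36.6, -24.4 and -23.4 points. The other rises were chr12:15384501-15384900, chr11:116925501-116925800, chr2:129874401-129874700 and chr9:103404201-103404500, by 27.8, 23.9, 20.6 and 20.2 points. A longer run outside the 10, chr18:30426701-30428700 over 8 tiles, was chosen after its values were seen: it was at 8.18% and 2.60% in nulls, against 68.6% and 60.3% in controls, while its day 7 levels were 57.9% to 74.0% in nulls, against 32.9% to 71.1% in controls. The run on chromosome 9 at 103404201 was the closest of the 10 to a FoxA site, at 2991 bp.

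Chromosome 9 was then counted over single tiles, a count chosen after these values were seen and given without a test. Tiles at which both nulls were at least 30 points away from both controls numbered 222 of 442000 (0.0502%), of which 142 (0.0321%) were lower in nulls. Chromosome 9 held 57 of them, 42 lower in nulls, or 24.3 per 10000 tiles, against 0.716 to 10.0 per 10000 on the other 18 autosomes. Within it, 41 of the 57 lay between 20 and 45 Mb, at 85.6 per 10000 tiles, against 8.58 per 10000 on the rest of the chromosome. By the same measure over 3 nulls and 3 controls, 0 tiles of chromosome 9 were 30 points apart at day 7. Such day 7 tiles numbered 12 on chromosome 1, 4 on chromosome 5 and 1 each on chromosomes 4 and 8. Every other autosome had 0, so the 0 was not particular to chromosome 9. The labels give neither the strain nor the litter of these animals, and a difference in either between the groups was not tested.

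**Figure D5:**
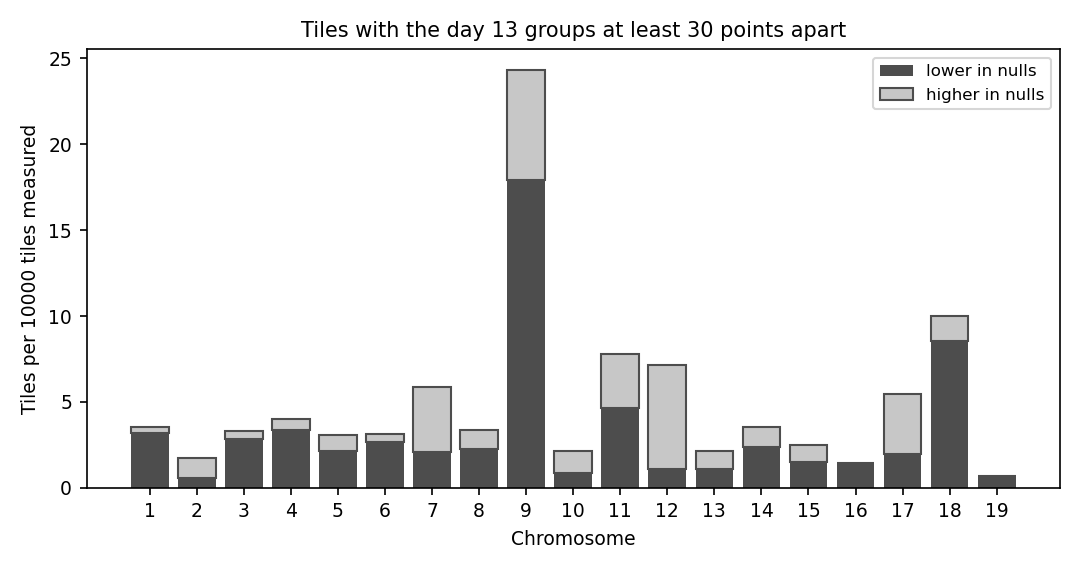
Tiles at which both day 13 nulls were at least 30 percentage points from both controls, per 10000 tiles measured (y axis), on each autosome (x axis), with the share lower in nulls in dark and the share higher in light. Chromosome 9 stands at 24.3 per 10000, and the others at 0.716 to 10.0.

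The last comparison asked whether the null minus control difference itself changed between the days. Of the 411725 tiles with a level in all 10 libraries, limma called 3 higher (0.000729%) and 1 lower (0.000243%) at day 13 than at day 7 at an adjusted p under 0.05, 4 in all (0.000972%). The unadjusted p was under 0.05 at 16273 tiles, a smaller share than the 0.05 expected with no difference. At 2 of the 4 called tiles, both on chromosome 5, the groups differed at day 7 and not beyond their overlap at day 13. At the other 2, chr19:28750201-28750300 and chr10:119664201-119664300, the tile was also called at day 13. None of the 4 lay within 2000 bp of a FoxA site, and 372976 of the 411725 tiles lay farther than that as well. The class means gave exact permutation p-values between 0.483 and 0.983 for day 13 minus day 7 over the 6 classes, so a change between the days was not detectable with these libraries.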

How the data were processed

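RRBS libraries were made from 100 ng of hepatocyte DNA and sequenced as 100 bp single-end reads, with a minimum of 25 M reads per library, per the labels' protocols. The submitters' processing notes name BSMAP 2.74, Trim Galore 0.3.3 and the mm9 build. The step from reads to tiles, with any coverage minimum, is likewise not given in sources used here. The authors deposited methylation as a fraction per 100 bp tile (RRBS) or per 400 bp site (WGBS), which was multiplied by 100 here. The control HNF6 peak lists deposited by the authors give a fold enrichment ratio per peak, called per library per the file headers, of which only positions were used. The deposited averages of the day 13 groups equalled the plain mean within 0.001 points at 18.1% of tiles in nulls and 15.0% in controls, and were not used in tests. 1 further per-sample column, headed as a developmental null in the table of adult WGBS levels, was not used.

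For tiles, runs and sites, levels in percent entered limma 3.58.1 (R 4.3.3), as a moderated test of group means with a trend of variance on level. P-values were adjusted by Benjamini-Hochberg and called under 0.05. Variances were estimated over the 27 RRBS libraries in 10 groups, of which the age series groups mix ages. Class means were compared by two-sided exact permutation in Python 3.11.15. Levels of 5 to 95% were set on the mean of the libraries compared, nulls and controls together. The fit was tested on simulated data and set against limma's own functions. Named were all called tiles of 10 points or more, the 3 other called tiles of smallest adjusted p, every called site, the 4 largest rises and falls among listed sites, and, with 0 runs called, the 5 largest rises and falls at an unadjusted p under 0.01. The members, classes and lists were chosen with earlier results of these data known. Alternatives were another source of spread, a logit scale between 1 and 99%, levels of 5 to 95%, differences of at least 20 points, no variance trend, a replicate block, each library left out, runs of 5 tiles or 200 bp gaps, and 2 tiles a site; the division by distance was chosen after seeing the data.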

Additional observations from a re-analysis of the deposited data

Results flagged for a closer look

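The null minus control difference itself was compared between day 13 and day 7 at 411725 tiles, and limma called 3 higher (0.000729%) and 1 lower (0.000243%) at day 13 at an adjusted p under 0.05. Each of the 4 tiles was flagged because its difference was not the same on the 2 days.

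At chr5:106349001-106349100 the day 13 nulls were at 96.9% and 92.7%, against 96.0% and 88.2% in day 13 controls. At day 7 all 3 nulls were at 0%, against 71.2%, 93.3% and 71.4% in controls. The difference was 81.3 points higher at day 13 (SE 8.83, limma adjusted p = 0.0049), and it came from the day 7 libraries.

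At chr5:139180101-139180200 the day 13 nulls were at 89.9% and 84.8%, against 87.1% and 88.3% in day 13 controls, and the day 7 nulls were at 25.1% to 26.3%, against 68.8% to 80.9% in day 7 controls. The difference was 47.1 points higher at day 13 (SE 5.95, limma adjusted p = 0.0182), again from day 7.

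At chr19:28750201-28750300 both day 13 nulls were at 100%, against 75.0% and 80% in day 13 controls, while day 7 nulls were at 85.3% to 94.3%, against 100% in all 3 day 7 controls. The difference was 31.5 points higher at day 13 (SE 3.86, limma adjusted p = 0.0171). At chr10:119664201-119664300 the only levels above 0% were the 5.00% and 4.17% of the day 13 controls, a difference of -4.58 points (SE 0.584, limma adjusted p = 0.046). With the spread taken from the 10 libraries, none of these 4 tiles passed, with an adjusted p of 0.0686 to 0.32.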

How the results depend on the processing

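Main counts were 12 tiles higher and 21 lower, 0 and 0 runs, 0 and 1 FoxA sites, and 3 and 1 tiles in day 13 minus day 7. With the spread of the 10 libraries, 30 tiles were higher and 73 lower, 5 runs lower, 1 site higher and 3 lower, and 14 and 14 tiles for day 13 minus day 7. With the spread of the 4 libraries the counts were 0 and 0 tiles and 0 sites. The logit scale gave 23 tiles higher and 19 lower, 1 run higher and 3 lower, and 6 and 2 for day 13 minus day 7. Levels of 5 to 95% gave 6 and 6 tiles, 0 sites and, for day 13 minus day 7, 5 higher. Differences of at least 20 points gave 6 and 8 tiles and 0 sites, no variance trend gave 3 and 5 tiles, and 2 or more tiles per site gave 0 sites. The replicate block, under numbers that do not pair the samples (correlation of same-numbered deviations -0.000397), gave 11 and 19 tiles. Without each library in turn, the tile counts were 37 to 446 higher and 92 to 269 lower (446 and 172 without control 2), runs 0 to 2 and 0 to 4, sites 0 to 1 and 0 to 8, and day 13 minus day 7 tiles 2 to 75 and 0 to 69; a group left with 1 library is assumed there to vary like the other groups. Leaving out a library moved the listed sites between -2.84 and 0.172 points, distant tiles between -0.642 and 0.34 and all tiles between -0.664 and 0.29. HNF6 tiles at a FoxA site moved between -4.78 and -1.71. Over both days it moved distant tiles between -0.197 and 0.301, all tiles between -0.236 and 0.251, listed sites between -1.70 and -0.282, and HNF6 tiles at a FoxA site between -4.29 and -2.75, the last with an exact p of 0.05 to 0.0667 without any of 6 libraries. FoxA sites off the list kept their direction, between -1.25 and -0.785 points at day 13 and between -1.20 and -0.981 over both days, as did HNF6 tiles without a FoxA site, between -4.52 and -2.45 points at day 13. The median of listed tiles over both days was -2.88 points. The site at chromosome 10, 98499712, ranged from -43.2 to 3.90 points, the last without control 1. The causes of these shifts were not tested. Depth is unknown, so no limit of detection could be set for a single tile.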
